A study of Rattus norvegicus with 4 samples.

Results

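The miRNAs described here are miR-92b and the miRNAs that share its seed, the short stretch near the 5′ end through which a miRNA recognises its targets. They are 6 of the 719 rat miRNAs on the array, chosen by name: both arms of the miR-92b hairpin (rno-miR-92b-3p and rno-miR-92b-5p, where rno stands for rat) and the seed relatives rno-miR-92a-3p, rno-miR-25-3p, rno-miR-32-5p and rno-miR-363-3p. A mature miRNA is cut from an arm of a hairpin precursor and guides the silencing complex to messenger RNAs that match its seed, so miRNAs with the same seed share many predicted targets. miR-92a and miR-25 come from hairpin clusters known for promoting growth and are abundant in blood, whereas miR-92b has a gene of its own and is best known from neural tissue and tumours.

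Exosomes are small vesicles shed by cells, and those in serum carry RNA, which was profiled here on 4 arrays, 1 for each group of male rats. The naive array (day 0) came from rats that were not injected. The others came from rats with hepatocellular carcinoma (HCC), a liver cancer, which the labels call light (day 35), moderate (day 49) or severe (day 49). The treatment protocol has an HCC cell line injected, which it does not name, while the design text speaks of HCC exosomes and a single dose to rats it spells "baffolo". The title names exosomal miR-92b as the subject of the study. The design text speaks of 4 experiments per time with different animals, whereas each group has 1 array here, and pooling of RNA is not stated in the labels. So no replicate error and no p-value can be given, and day and disease cannot be told apart against naive. Every error below is a standard error (SE) over replicate spots of 1 array. In serum, fewer releasing cells of a type and less RNA released per cell cannot be told apart.

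The sequences show what the members share and where they part. Each is written 5′ to 3′ as listed by RefSeq on the GRCr8 build, with the seed (bases 2 to 8) in capitals.
miR-92b-3p: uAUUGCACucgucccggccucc
miR-92a-3p: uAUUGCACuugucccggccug
miR-25-3p: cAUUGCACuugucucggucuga
miR-32-5p: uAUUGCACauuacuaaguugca
miR-363-3p: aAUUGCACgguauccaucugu
All 6 members were matched in that table, and of its 693 mature miRNA names 5 (0.722%) held the seed AUUGCAC, all of them members. miR-92b-5p, the opposite arm of the hairpin, has another seed.
miR-92b-5p: agggacgggacgcggugcaguguu

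Past the seed the family splits. Counted from the 5′ end, miR-92b-3p and miR-92a-3p were identical at 19 of 21 compared positions, with the substitutions C10U and C21G (miR-92b-3p base first). They shared an unbroken run of 10 bases, from position 11 to 20. With the differing bases in capitals, the extra last base of miR-92b-3p included, they read as follows.
miR-92b-3p: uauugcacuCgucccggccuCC
miR-92a-3p: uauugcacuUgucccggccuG
After the seed, miR-25-3p matched miR-92b-3p at 9 of 14 positions, miR-32-5p at 3 of 14 and miR-363-3p at 3 of 13. miR-92b-3p was also the richest in G and C among the seed sharers, at 63.6%, against 57.1% for miR-92a-3p and 31.8% for miR-32-5p.

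The genes lie apart on GRCr8. miR-92b-3p is encoded at chr2:176931663-176931684 on the minus strand, outside the span of any protein-coding gene listed and nearest to Thbs3 and Muc1. miR-92a-3p has 2 gene copies with the same mature sequence, so its signal cannot be assigned to either. The copy at chr15:98588602-98588622 (plus strand) lies beside Mir17, Mir18a, Mir19a, Mir20a and Mir19b1. The copy at chrX:137342945-137342965 (minus strand) lies beside Mir363, Mir19b2, Mir20b and Mir106a. miR-25-3p lies at chr12:22156652-22156673 (minus strand) within the span of Mcm7, a replication helicase gene, next to Mir93 and Mir106b. miR-32-5p lies at chr5:76391328-76391349 (minus strand) within the span of Tmem245, and miR-363-3p at chrX:137342788-137342808 (minus strand). The gene table used gives spans only, so exon and intron were not resolved here.

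A miRNA's signal is the mean over the spots of each probe, summed over its probes, in background-subtracted intensity units that can fall below 0. The scanner software's call decided whether a miRNA was detected, which held for 140 miRNAs on naive, 122 on light, 176 on moderate and 129 on severe. Brightness differed: the sum over detected miRNAs on the light, moderate and severe arrays was 0.643, 1.58 and 0.694 times the naive sum. "Scaled" below means relative to the 75th percentile, on that array, of the 111 miRNAs that all arrays detected. The severe array also stood apart technically, with 525 outlier spots against 386 or 387 on the others. Its labelling spike-ins dmr_285 and dmr_31a were at 0.788 and 0.488 times the naive level, with a geometric mean of 0.620. Without scaling, the median log2 difference of all measured miRNAs from naive was −0.63 on light, 0.74 on moderate and −0.79 on severe, and with scaling 0.27, 0.22 and −0.11.

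rno-miR-92b-3p was seen on severe and on no other array. Its summed signal was −30.4 ± 1.49 on the naive array, −23.2 ± 2.02 on light, −24.6 ± 2.01 on moderate and 246 ± 5.38 on severe. The naive, light and moderate sums lie below 0, with 0 of 20 spots well above background on each, against 10 of 20 on severe. An undetected miRNA has only a bound, set against the array's floor, the mean of its dimmest probe among those with 0.5 or more of the spots well above background (15.6, 15.1, 13.1 and 16.01 units). Scaled, the severe signal exceeded naive at least 25.2-fold, light at least 13.9-fold and moderate at least 43.3-fold. The sum over 4 probes is set here against the floor of a single probe, so the bounds of single probes are given with the probes.

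**Figure D1:**
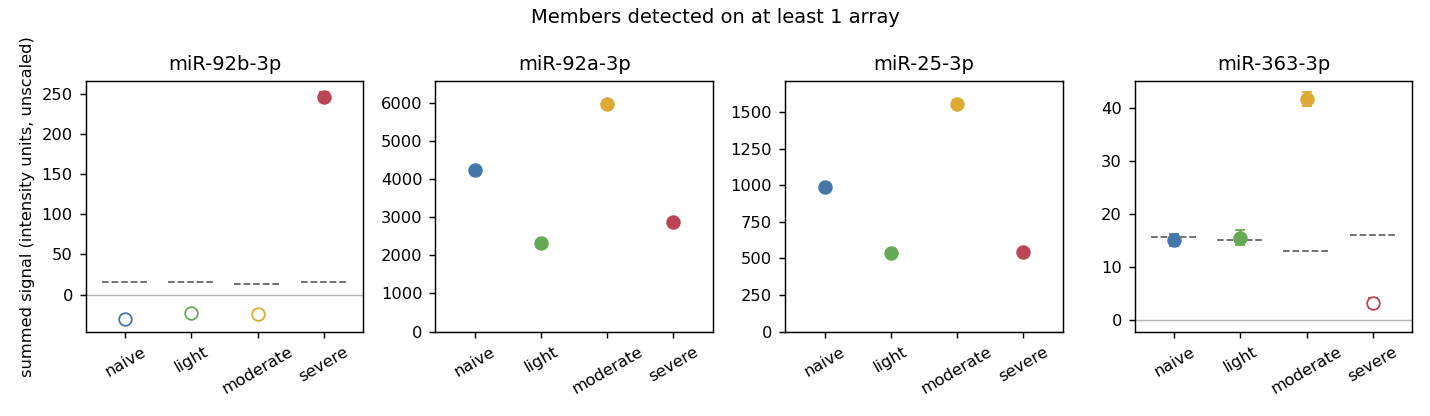
Summed unscaled signal of the 4 members detected on at least 1 array (vertical axis, intensity units, linear, with its own range in each panel) on each array. Points are sums over probes with SE over spots, filled where detected and open where not, and dashed lines mark each array's floor in the panels of the dim members. miR-92b-3p stands above the floor on the severe array alone, at 246, while miR-92a-3p and miR-25-3p are highest on the moderate array.

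The signal of miR-92b-3p came from 2 of its 4 probes. On the severe array the 5 spots of probe 4 read 208, 217, 227, 231 and 232, a mean of 223 ± 4.53. The 5 spots of probe 3 read 22.1, 26.4, 30.7, 31.5 and 38.1, a mean of 29.8 ± 2.67. All 5 spots of each of these probes were well above background, and none was an outlier. Probes 1 and 2 stayed at −5.27 ± 0.36 and −1.25 ± 1.11 on the same array. The spots of all 4 probes lay between −10.5 and −4.93 on naive, −10.0 and −1.89 on light, and −10.0 and −0.67 on moderate, with no overlap with those of probes 3 and 4 on severe. Scaled, probe 4 alone was at least 22.9-fold higher than naive, 12.6-fold higher than light and 39.2-fold higher than moderate. Probe 3 alone was at least 3.05-fold, 1.69-fold and 5.23-fold higher. Without scaling, the bounds against naive were 14.2-fold for probe 4 and 1.90-fold for probe 3. Against naive, probe 3 thus passed 2-fold with scaling and not without. Its unscaled bounds were 1.97-fold against light and 2.28-fold against moderate. Probe 3 therefore passed 2-fold against moderate either way and against light neither way.

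**Figure D2:**
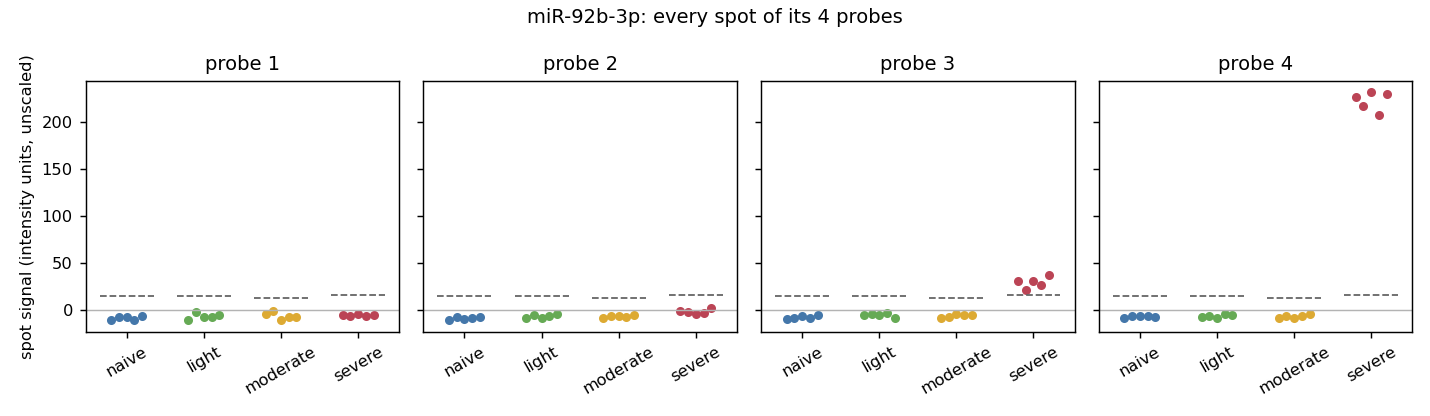
Unscaled signal of every spot (vertical axis, intensity units) of the 4 miR-92b-3p probes, 5 spots per probe on each array; dashed lines mark each array's floor. On the severe array all spots of probes 3 and 4 lie above the floor and all spots of probes 1 and 2 below it, as do all spots of the other arrays.

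Probes of the same miRNA differed for other miRNAs too. A probe carried signal if at least 0.5 of its spots were well above background. Of the 11 miRNAs with 4 probes detected on the severe array, miR-92b-3p included, 4 had all 4 carrying signal. The 2 with 2 such probes were miR-92b-3p and miR-675-3p, while 1 had 1 and 4 had 0. Of the 118 miRNAs with 2 probes detected there, 30 had 1 carrying signal. Probe sequences were not used here, so the bases each probe reads were not determined. miR-92a-3p, the nearest sequence, was brightest on the moderate array, at 5967 ± 83.2 units, and the 4 probes of miR-92b-3p had means of −6.44 to −5.82 there. Binding of other miRNAs to these probes on the severe array was not tested.

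rno-miR-92b-5p, the opposite arm, was detected on no array. Its 2 probes summed to −12.3 ± 0.86 on naive, −10.5 ± 0.75 on light, −8.38 ± 1.36 on moderate and −12.3 ± 0.77 on severe, with 0 spots well above background on any array. The severe array, where the 3′ arm was detected, read no higher for the 5′ arm than the others. A 5′ arm too dim for the scanner software's call would not have been seen.

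The miRNAs with a detection pattern like that of miR-92b-3p were the other members of the 5 detected on the severe array alone. miR-675-3p, cut from the imprinted H19 transcript, summed to 38.7 ± 1.41 there, with 2 of its 4 probes carrying signal. miR-183-5p, of a cluster known from sensory cells, summed to 30.5 ± 1.18. miR-134-5p, of the imprinted Dlk1-Dio3 region, summed to 27.6 ± 1.12. miR-3546 summed to 2.70 ± 0.74, under the floor and with 0 of 20 spots well above background. Detection on a single array was not particular to severe: of the 719 miRNAs, 30 were detected on moderate alone and 1 on naive alone.

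rno-miR-92a-3p, the mature miRNA of both miR-92a genes, was bright on all 4 arrays. Its unscaled signal was 4235 ± 62.9 on naive, 2319 ± 31.0 on light, 5967 ± 83.2 on moderate and 2862 ± 28.3 on severe, and all 20 spots were well above background on each. That order, moderate, naive, severe and light, is the order of the arrays' own brightness. After scaling, the log2 difference from naive was 0.03 ± 0.03 on light, −0.02 ± 0.03 on moderate and 0.12 ± 0.03 on severe, and severe against moderate was 0.14 ± 0.02. Light and moderate lay within about the spot error of naive. The direction depended on the scaling: over 11 alternatives the differences from naive ran from −0.88 to 0.04 on light, −0.38 to 0.66 on moderate and −0.57 to 0.58 on severe. Severe against moderate ran from −1.06 to 0.95.

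With this scaling miR-92a-3p spanned 0.14 log2 units over the 4 arrays, and 0 of the 104 miRNAs measured on every array (detected and at or above the floor) spanned less. Their median span was 1.20, and miR-25-3p spanned 0.32, with 3 of the 104 below it. The place of miR-92a-3p depended on the setting. Without scaling 6 of 104 spanned less, with median scaling 12, with labelling spike-ins 23 and with quantile normalization 43. miR-25-3p spanned less than miR-92a-3p with median scaling (0.31 against 0.41) and quantile normalization (0.28 against 0.95). It spanned more without scaling (1.53 against 1.36) and with labelling spike-ins (1.71 against 1.54). By distance over the 4 scaled log2 values, each miRNA's mean subtracted, the closest to miR-92a-3p were miR-324-3p at 0.12, miR-34a-5p at 0.25 and miR-25-3p at 0.33, against a median distance of 0.94.

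The 2 probes of miR-92a-3p moved together on light and moderate and apart on severe. The bright probe read 3247 ± 62.8, 1783 ± 30.7, 4597 ± 83.0 and 2306 ± 28.1 in the order naive, light, moderate, severe. The dim probe read 988 ± 4.30, 536 ± 4.76, 1370 ± 5.80 and 557 ± 2.55. The ratio of bright to dim was 3.29 ± 0.07, 3.33 ± 0.06, 3.35 ± 0.06 and 4.14 ± 0.05, and the severe ratio stood above the others by more than the spot errors. Scaled against naive, the bright probe was at a log2 difference of 0.19 ± 0.03 on severe and the dim probe at −0.15 ± 0.01, a gap of 0.33. Of 71 miRNAs with 2 or more probes carrying signal on both arrays, 10 (14.1%) had a larger gap, and the median gap was 0.10. The small scaled difference of miR-92a-3p on severe thus adds probes of opposite sign. Unscaled, both probes lay below naive, at −0.49 for the bright probe and −0.83 for the dim probe. Their signs therefore depended on the scaling, while the gap between them did not.

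**Figure D3:**
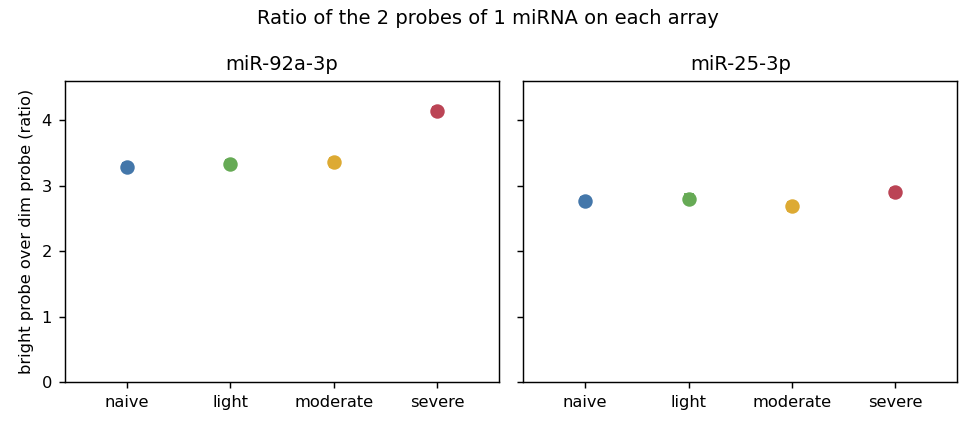
Ratio of the mean signal of the bright probe to that of the dim probe (vertical axis, no unit, starting at 0) of miR-92a-3p and miR-25-3p on each array, with SE over spots, which is smaller than the points. For miR-92a-3p the severe array lies at 4.14 against 3.29 to 3.35 on the others, while miR-25-3p stays between 2.69 and 2.90.

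rno-miR-25-3p, from the cluster within Mcm7, was detected on every array as well. Its unscaled signal was 988 ± 13.2 on naive, 537 ± 7.88 on light, 1556 ± 26.2 on moderate and 543 ± 8.62 on severe. Light and severe did not differ beyond their spot errors, and moderate was the highest. After scaling, the log2 difference from naive was 0.02 ± 0.03 on light, 0.14 ± 0.03 on moderate and −0.18 ± 0.03 on severe, and severe against moderate was −0.32 ± 0.03. Both probes had the same sign on severe, at −0.23 ± 0.02 and −0.16 ± 0.04. The directions depended on the scaling here too: over the alternatives the differences from naive ran from −0.89 to 0.03 on light, −0.03 to 0.82 on moderate and −0.86 to 0.05 on severe, and severe against moderate from −1.52 to 0.05. The closest miRNAs over the 4 arrays were miR-148b-3p at a distance of 0.098, miR-34a-5p at 0.18 and miR-30d-5p at 0.18, against a median of 0.83.

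rno-miR-363-3p, encoded beside the X-linked copy of miR-92a, was dim. Its summed signal was 15.1 ± 1.09 on naive, 15.6 ± 1.37 on light, 41.7 ± 1.24 on moderate and 3.27 ± 0.99 on severe, where it was not detected. A single probe carried it, with means of 19.9 ± 0.88, 18.1 ± 1.20, 41.7 ± 1.06 and 8.14 ± 0.75 and with 10, 7, 10 and 0 of 10 spots well above background. The moderate array was the highest and severe the lowest before scaling. Scaled, that probe was at a log2 difference from naive of 0.76 ± 0.12 on light and 0.55 ± 0.07 on moderate. Unscaled, it was at −0.14 on light and 1.07 on moderate, so the direction on light depended on the scaling. Severe was at least 1.13-fold lower than moderate.

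rno-miR-32-5p was detected on no array, although the opposite arm of its hairpin was. Its 4 probes summed to −20.1 ± 1.54 on naive, −12.5 ± 3.1 on light, −16.9 ± 1.86 on moderate and −21.1 ± 2.12 on severe, with 0 spots well above background on any array. miR-32-3p, the opposite arm, lies at chr5:76391288-76391309 (minus strand) and has another seed.
miR-32-3p: gcaauuuagugugugugauauu
It read 49.5 ± 0.94 on naive, 42.1 ± 1.29 on light, 43.6 ± 1.17 on moderate and 7.26 ± 1.16 on severe, where it was not detected. Its 2 probes read 23.9 ± 0.57 and 25.7 ± 0.75 on naive and 4.49 ± 0.80 and 2.77 ± 0.84 on severe, so both were low there. Scaled, 1 naive probe lies below the severe floor and the other level with it, so no fold is given. The light difference in log2 was 0.67 ± 0.05 scaled and −0.23 unscaled, so its direction depended on the scaling, while moderate was at −0.70 ± 0.05 scaled and −0.18 unscaled. Of the 6 opposite arms listed, miR-32-3p was the 1 detected on naive, light and moderate, and severe had 0 of 6. miR-92a-1-5p, miR-92a-2-5p, miR-25-5p, miR-363-5p and miR-92b-5p had sums below 0 on all 4 arrays.

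Of the 6 members, 3 had a difference or a bound on light against naive, and 0 of these 3 were at least 2-fold different, where 2.48% of all miRNAs with a difference or a bound were. On moderate against naive the count was 0 of 3, beside 7.64% of all. On severe against naive it was 1 of 3, miR-92b-3p, beside 43.3% of all, 24.6% being higher. On severe against moderate it was 1 of 4, miR-92b-3p, beside 43.8% of all, 21.9% being higher. The third member on light and moderate was miR-363-3p, whose naive sum lay under that array's floor. In each comparison 2 members, miR-92a-3p and miR-25-3p, were measured on both arrays, and neither reached 2-fold. The 3 comparisons with naive share the naive array.

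The other miRNAs of the clusters that hold miR-92a, miR-363 and miR-25 did not follow miR-92a-3p. Of 10 on the list, 8 were on the array under those names, and all 8 were measured on every array. miR-19b-3p, a driver of growth in the miR-17-92 cluster, read 3524 ± 20.4, 2818 ± 23.8, 6660 ± 56.6 and 1634 ± 16.4 in the same order of arrays. miR-20a-5p read 1793, 1364, 3106 and 770, miR-17-5p 956, 669, 1543 and 346, and miR-19a-3p 802, 707, 1448 and 407. miR-18a-5p read 376, 273, 597 and 113, and miR-20b-5p, from the X-linked cluster, 1011, 779, 1748 and 413. All were lowest on the severe array, whereas miR-92a-3p was lowest on light. Several of these miRNAs differ by few bases, and how well their probes tell them apart was not determined.

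Scaled, the 8 had a median log2 difference from naive of 0.52 on light, 0.27 on moderate and −0.52 on severe, beside 0.27, 0.22 and −0.11 for all measured miRNAs. Unscaled, all 8 read lower than naive on light, so that direction depended on the scaling. Past 2-fold were 0 of 8 on light, 0 of 8 on moderate and 1 of 8 on severe, miR-18a-5p at −1.06, beside 2.48%, 7.64% and 43.3% of all. These shares include bounds and both directions. On severe they stand for 58 of 134 miRNAs, of which 25 were lower.

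Setting each mate against miR-92a-3p removes any single scaling factor per array. In log2 difference from naive, all 6 mates lay above miR-92a-3p on light, by a median of 0.48 (0.35 to 0.69), and on moderate, by 0.30 (0.17 to 0.42). On severe all 6 lay below it, with a median of −0.69 (−1.17 to −0.41). Of all measured miRNAs, 68.4% lay above miR-92a-3p on light, 66.7% on moderate and 38.5% on severe. Most miRNAs thus lay on the same side of miR-92a-3p as the mates on each array. The severe median of the mates was −0.43 against the dim probe of miR-92a-3p alone and −0.76 against the bright one, with 6 of 6 below each. In 6 of the 11 alternatives the change cancels in this comparison; in the other 5, among them quantile normalization and normexp, the counts were the same and the severe median ran from −1.18 to −0.54.

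For miR-25-3p the same comparison was mixed. miR-106b-5p read 647, 583, 1372 and 462 from naive to severe, and miR-93-5p 498, 341, 789 and 219. In log2 difference from naive, miR-106b-5p stood 0.73 above miR-25-3p on light, 0.43 above on moderate and 0.38 above on severe. miR-93-5p stood 0.34 above it on light, 0.01 above on moderate and at −0.32 relative to it on severe.

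**Figure D4:**
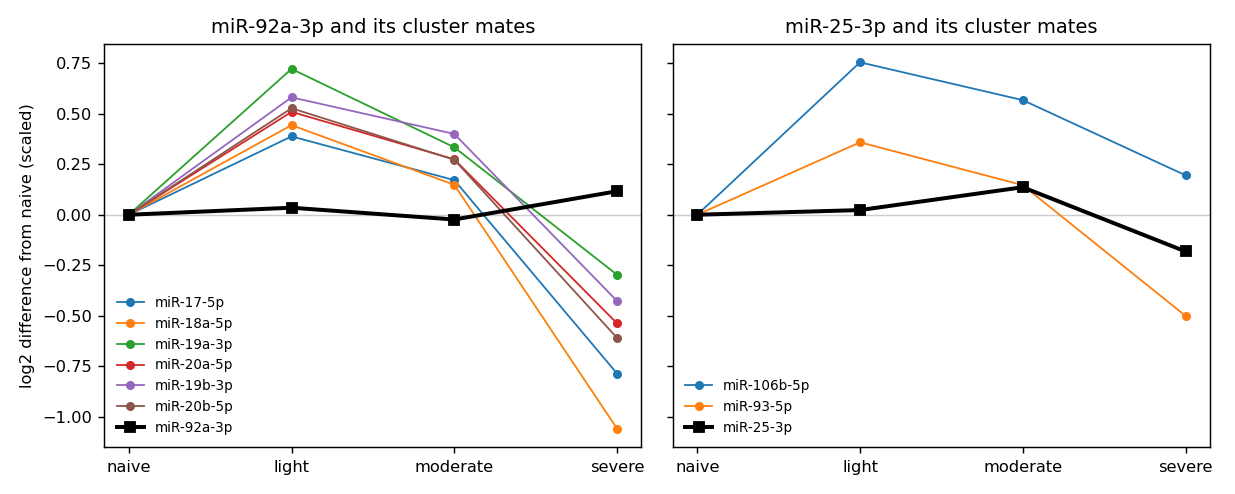
Scaled log2 difference from naive (vertical axis) on each array for miR-92a-3p with 6 cluster mates (left) and miR-25-3p with 2 (right); black squares are the family member, and lines join the values of a miRNA. All 6 mates lie above miR-92a-3p on light and moderate and below it on severe. Most of all measured miRNAs, not drawn, lay on the same sides of it.

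Marker miRNAs of blood cells and tissues differed between the same arrays. Values are scaled sums over each list relative to naive on light, moderate and severe, with sums below 0 set to 0. The 5 leukocyte markers stood at 1.40, 1.42 and 0.545, and all 5 were detected on every array. Unscaled, their light sum was 5989 units against 7998 on naive, so the direction on light depended on the scaling. miR-223-3p made up most of these sums. On moderate it was at a log2 difference of 0.63 from naive, while miR-142-3p was at −0.88 and miR-150-5p at −0.57, and the median of the 5 was 0.16. On severe, miR-223-3p was at a log2 difference of −0.91 from naive, miR-150-5p at −3.11, miR-146a-5p at −0.44, miR-142-5p at −0.64 and miR-142-3p at 0.03. The 4 red-cell markers stood at 1.29, 1.1 and 0.786, with 3, 3, 4 and 4 detected on naive, light, moderate and severe. Their unscaled light sum was 24179 units against 35014 on naive, again the other way. miR-451-5p made up most of these sums. On light, miR-144-3p was at a log2 difference of 1.38 from naive, and unscaled it read 234 against 169. On moderate it was at −0.19, while miR-451-5p was at 0.14 and miR-16-5p at 0.13. The red-cell markers did not move as a group on severe either. There miR-451-5p was at −0.30 and miR-16-5p at −0.71, while miR-144-3p was at 1.82. miR-144-5p, not detected on naive, read 38.2 ± 1.16 units on severe.

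The 2 hepatocyte markers stood at 0.216, 0.607 and 0.604, with miR-122-5p at −2.18, −0.74 and −0.75 and miR-122-3p not detected on light. miR-122-5p made up most of these sums. On moderate, miR-122-3p was at −0.07, and unscaled it read 35.1 against 25.7 on naive. The 3 muscle markers stood at 0.628, 1.90 and 0.0534, with miR-133b-3p at −4.14 on severe, miR-133a-3p not detected on light and severe and miR-1-3p not detected on severe. The 2 markers of platelets and endothelium stood at 0.637, 1.004 and 0.511, with miR-126a-3p at −0.98 on severe and miR-126a-5p not detected on light and severe. The part of these cells in the values of miR-92b and its family was not tested.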

How the data were processed

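Each array held 14380 miRNA spots for 1730 probes. The deposited intensity values per spot came, per the file headers, from Agilent Feature Extraction 10.7.3.1 on design 046066 (rn4), background-subtracted with spatial detrending and not scaled between arrays. The submitters' processing notes name version 9.1. The labels' protocol describes labelling of amplified cRNA, which is not usual for miRNA arrays. This was not resolved. Outlier spots were left out, and 0 spots were saturated. Calculations used Python 3.11.15, numpy 2.4.6, pandas 2.3.3 and, for normexp, limma 3.58.1, and were tested on simulated data. Normexp was planned on the mean spot signal and run on the median. Coordinates come from RefSeq on GRCr8, not from the array files.

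With 1 array per group no test was run, and the number of arrays limits the precision. Named were the 6 members, list members (those detected with values, undetected opposite arms and markers by name), miRNAs detected on the same arrays as miR-92b-3p, and the 3 closest to each member measured on every array; miR-301a-5p was named after its sequence match was seen. Members and lists were chosen with earlier results of these data known. miR-18b-5p and miR-106a-5p had no match by name.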

Additional observations from a re-analysis of the deposited data

How the results depend on the processing

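No paired analysis was possible because each group has 1 array. The bound of miR-92b-3p on severe against naive, 25.2-fold, stayed above 2-fold under all 12 alternatives. It became 15.7-fold without scaling, 18.4-fold with quantile normalization, 2.97-fold with normexp and an offset of 50, 13.5-fold with normexp and no offset, 21.8-fold with the brightest probe, 23.6-fold with the scanner software's total signal, 27.8-fold with detection by spots well above background, 9.68-fold in the deposited value table and 3.05-fold with the second probe alone. The offset is added to the signals of both arrays and so lowers folds by construction. Without scaling the factor per array drops out, and with the second probe alone its dimmer signal replaces the sum. Those shifts also follow by construction, and the cause of the other shifts was not tested. Members past 2-fold on moderate against naive went from 0 to 1, higher, without scaling and with labelling spike-ins, where 48 and 70 of all miRNAs were higher. On severe against moderate they went from 1 to 4 without scaling, 1 higher and 3 lower, where 17 of all were higher and 102 lower. On severe against naive they went from 1 to 0 where every probe carrying signal had to pass 2-fold without scaling. Normexp without offset and the settings on single probes were added after the data were seen. Scaling by the 75th percentile over all miRNAs was not run, because that percentile lay at −0.74 on light.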

Other observations

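The scanner software's total signal, which the deposited value table also gives, weighted probes by their number of spots. On the severe array the total of a probe was 0.349 times its mean spot signal in all 20 probes with 5 spots, and 0.697 times in all 143 probes with 10 spots, among probes carrying signal without an outlier spot. miR-92b-3p has probes of 5 spots and miR-92a-3p probes of 10. The totals on the severe array were 88.1 for miR-92b-3p and 1996 for miR-92a-3p, where the summed means were 246 and 2862.

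Among the 688 mature miRNAs outside the family, the longest run of bases shared with miR-92b-3p was 9, in miR-301a-5p.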
